A study of Homo sapiens with 6 samples.

Results

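HNF4A, CREB3L3, VIL1, MUC13, CDX1, CDX2, GATA6 and FOXA2 are regulators and markers of the intestine and liver, and were followed here in KYSE510, a human line grown from a squamous carcinoma of the oesophagus. The 8 genes were taken by symbol from a table of 62700 genes, and all 8 were in it. They had been picked with results of this comparison known, so the difference between the groups in these 8 genes is described and not tested. RNA of 6 cultures grown in medium with 10% serum was sequenced after poly(A) selection. The shControl group held 3 libraries of cells carrying a control shRNA, labelled wild type. The shRNH1 group held 3 libraries of cells carrying an shRNA against the gene labelled RNH1, a model of induced R-loops, in which RNA stays paired with DNA. The labels give no count of shRNAs or clones and no time after the shRNA was introduced.

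In the gut and liver these genes form a layered programme. HNF4A is a nuclear receptor that holds the hepatocyte and enterocyte state, FOXA2 is a forkhead factor that opens endodermal enhancers, GATA6 is a zinc finger factor of early endoderm, and CDX1 and CDX2 are the homeobox factors that set intestinal identity. CREB3L3 is a membrane-bound transcription factor of hepatocytes and enterocytes that is cut free by proteases of the Golgi and activates genes of lipid handling. VIL1 encodes villin, an actin-bundling protein of the microvilli of the brush border, and MUC13 a transmembrane mucin of the intestinal surface. In stratified squamous epithelium, the tissue this line derives from, these genes are not the usual markers.

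The label of the knockdown was checked first. RNASEH1, the ribonuclease that cuts RNA in RNA:DNA hybrids, measured 34.9, 32.5 and 27.5 CPM (counts scaled to library size and normalised by TMM) in shControl and 7.40, 7.03 and 7.03 in shRNH1. By edgeR's quasi-likelihood test this was a log2 fold change of -2.14 with an SE of 0.116 (adjusted p = 1.61e-13). The exact two-sided permutation test gave p = 0.1, the smallest that 3 against 3 allows. RNH1, the ribonuclease inhibitor whose symbol the labels use, measured 441 to 655 CPM with overlapping groups (log2 fold change -0.19). Library totals were 40225486 to 41103220 counts in shControl and 31394687 to 33421217 in shRNH1. Over all 19682 genes tested 27.6% passed (15.3% higher and 12.3% lower in shRNH1), and the median log2 fold change was 0.016. Of 16 squamous markers 14 were tested, and 6 rose, 3 fell and 5 did not pass. Among the risers, PKP1 had 2, 1 and 0 counts in shControl and 10, 21 and 16 in shRNH1. It met the low-count filter only with its shRNH1 libraries, so its call is a description. TP63, the master factor of squamous cells, measured 53.2 ± 3.64 CPM in control cells and 52.5 ± 4.38 CPM after the knockdown (SD, n = 3 each) and did not pass. The basal keratin KRT5 fell from 30.9 ± 2.63 to 12.3 ± 0.248 CPM and KRT6A from 67.8 ± 7.40 to 15.5 ± 1.82 CPM, while KRT13 rose from 60.9 ± 8.94 to 149 ± 5.86 CPM and SOX2 from 0.748 ± 0.175 to 4.78 ± 0.930 CPM.

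The promoters of 4 of these genes are shown first, those of the tested members with a matched promoter. In shRNH1 HNF4A, CREB3L3 and MUC13 were higher and GATA6 was lower, and any link of a motif to this was not tested. The RefSeq promoter table (GRCh38.p14) matched 5 of the 8 members, and CDX1, FOXA2 and VIL1 were not matched. The promoter of CDX2, whose level could not be measured, was searched too but is not printed. Each sequence is the 250 bases before a transcription start, 5′ to 3′ on the gene's strand, with every match to 7 short motifs in capitals, and HNF4A P1 held none. HNF4A has 2 entries, upstream (P2) and downstream (P1), the latter known as the start used in adult liver. They are at chr20:44355449-44355698 and chr20:44400989-44401238, both on the plus strand. CREB3L3 is at chr19:4153381-4153630 (plus strand), MUC13 at chr3:124934752-124935001 (minus strand) and GATA6 at chr18:22169339-22169588 (plus strand).
HNF4A P2: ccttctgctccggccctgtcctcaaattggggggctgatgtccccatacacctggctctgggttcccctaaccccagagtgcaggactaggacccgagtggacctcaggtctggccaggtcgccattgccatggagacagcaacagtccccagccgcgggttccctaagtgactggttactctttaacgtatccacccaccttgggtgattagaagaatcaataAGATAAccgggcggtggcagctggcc
HNF4A P1: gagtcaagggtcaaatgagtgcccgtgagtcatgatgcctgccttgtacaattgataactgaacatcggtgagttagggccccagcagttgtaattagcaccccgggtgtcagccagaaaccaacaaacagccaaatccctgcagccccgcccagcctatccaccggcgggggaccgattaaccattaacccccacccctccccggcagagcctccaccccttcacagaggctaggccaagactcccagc
CREB3L3: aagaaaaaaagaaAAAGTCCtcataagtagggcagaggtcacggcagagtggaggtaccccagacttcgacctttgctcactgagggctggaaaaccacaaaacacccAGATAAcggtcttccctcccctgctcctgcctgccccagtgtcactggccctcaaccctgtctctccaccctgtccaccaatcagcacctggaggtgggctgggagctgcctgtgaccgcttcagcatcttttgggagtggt
MUC13: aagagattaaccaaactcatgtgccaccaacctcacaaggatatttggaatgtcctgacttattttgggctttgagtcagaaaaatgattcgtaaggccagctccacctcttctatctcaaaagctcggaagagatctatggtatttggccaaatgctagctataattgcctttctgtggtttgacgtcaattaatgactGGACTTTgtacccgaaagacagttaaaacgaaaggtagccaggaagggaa
GATA6: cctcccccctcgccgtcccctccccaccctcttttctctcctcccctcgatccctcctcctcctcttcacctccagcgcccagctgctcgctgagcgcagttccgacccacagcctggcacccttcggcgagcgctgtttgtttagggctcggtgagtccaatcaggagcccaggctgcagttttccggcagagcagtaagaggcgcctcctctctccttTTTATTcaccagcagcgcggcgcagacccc

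The motifs were searched on both strands of 35116 promoters of that length. The HNF4 core AAAGTCC was found at -237 from the start of CREB3L3 and, on the opposite strand (GGACTTT), at -50 from the start of MUC13, and 3.20% of all promoters held it. The GATA core AGATAA was present in HNF4A P2 at -26 and in CREB3L3 at -142 (9.17%). The CDX core TTTATT was found in GATA6 at -30 (16.0%). The other CDX core TTTATG (9.64% of all promoters), the FOXA core TGTTTAC (2.98%), the CREB3 core TGACGTG (1.68%) and the TATA box TATAAA (10.7%) had no match in these 5 sequences. In the CDX2 promoter the FOXA core lay at -13, the GATA core at -119 and the CDX core TTTATT at -180, all on the opposite strand. The TATA box and CDX cores can overlap each other. These matches describe the letters only. The MUC13 promoter had a GC content of 41.6%, against 58.4% for HNF4A P2, 58.0% for HNF4A P1, 56.0% for CREB3L3 and 64.4% for GATA6. The counts are per gene, so transcripts from the HNF4A starts cannot be told apart.

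Of the 8 genes, 5 passed the filter on low counts and 3 did not. Past the threshold of edgeR's quasi-likelihood test over all genes were 4 members in the higher direction (HNF4A, CREB3L3, MUC13 and VIL1; 15.3% of all tested genes were called higher) and 1 in the lower direction (GATA6; 12.3%). All 4 higher members were called with a rise of at least 2-fold (4.82% of all tested genes), and their groups did not overlap (21.4% of all genes, and 18.6% in the lower direction, where GATA6 stands). Because the members were chosen on this comparison, nothing is read from these counts. The label holds in part: HNF4A, CREB3L3, MUC13 and GATA6 were expressed, VIL1 was low, and the intestinal homeobox factors and FOXA2 were at or near 0. RNA of whole cultures was measured, so a change in the number of cells that express a gene and a change in RNA per cell cannot be told apart.

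**Figure D1:**
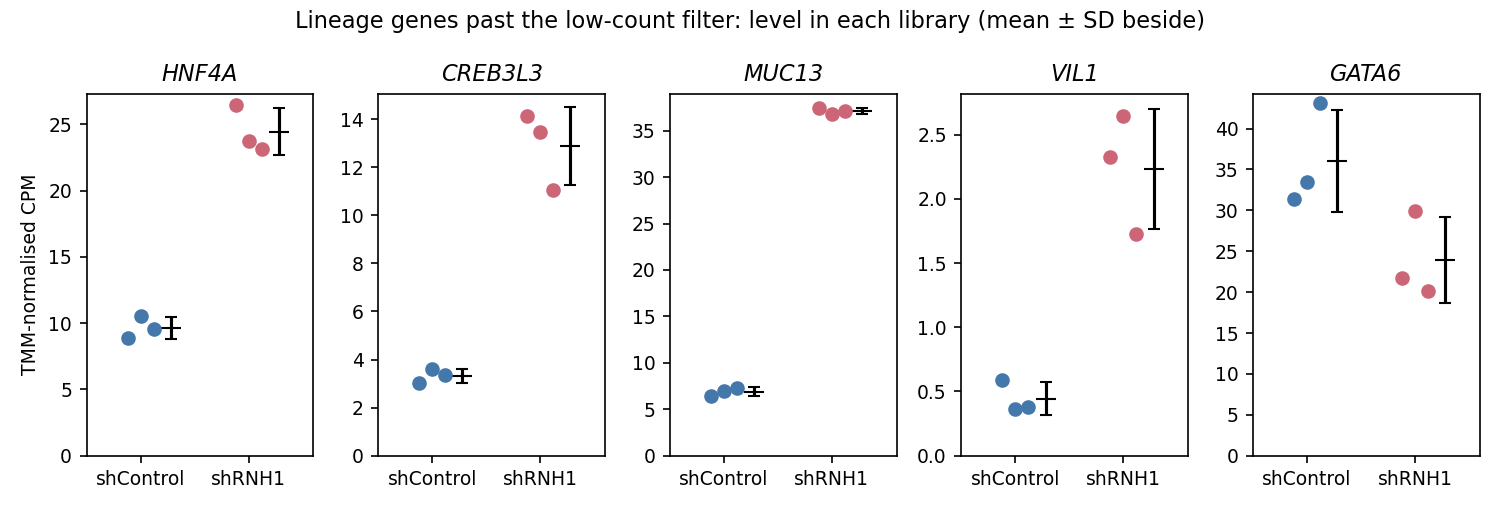
TMM-normalised CPM (vertical axes, each from 0) of the 5 members past the low-count filter in the 3 shControl (blue) and 3 shRNH1 (red) libraries, with mean ± SD beside the points. HNF4A, CREB3L3, MUC13 and VIL1 lie higher in every shRNH1 library, and in GATA6 the highest shRNH1 library (29.9 CPM) lies just below the lowest shControl library (31.4 CPM).

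HNF4A (ENSG00000101076; GRCh38 chromosome 20, 44355700 to 44434596, plus strand) had 345, 436 and 351 counts in shControl and 897, 833 and 764 in shRNH1. On the normalised scale these were 8.86, 10.5 and 9.53 CPM against 26.5, 23.7 and 23.2 CPM. The lowest shRNH1 library was 2.20 times the highest shControl library, so the groups were well apart. The mean went from 9.65 ± 0.849 to 24.4 ± 1.76 CPM (SD, n = 3 each), a log2 fold change of 1.34 (SE 0.112) or 2.53-fold (95% interval 2.16 to 2.97). By the size of the rise it ranked 597 of the 19682 genes tested.

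The other member of its receptor family, HNF4G, was lower in level and did not pass the test (1.00 ± 0.348 CPM in control cells, 1.01 ± 0.287 CPM after the knockdown; SD, n = 3 each).

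CREB3L3 (ENSG00000060566; chromosome 19, 4153601 to 4173054, plus strand) had 117, 149 and 123 counts in shControl and 479, 473 and 365 in shRNH1. These were 3.01, 3.60 and 3.34 CPM against 14.1, 13.5 and 11.1 CPM. Every shRNH1 library was at least 3.07 times the highest shControl library, and shRNH1 replicate 3 was the lowest of its group. The mean went from 3.32 ± 0.300 to 12.9 ± 1.61 CPM (SD, n = 3 each), a log2 fold change of 1.96 (SE 0.144) or 3.88-fold (95% interval 3.16 to 4.76).

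The relatives of CREB3L3 and the proteases that release it were followed next. Of 8 such genes, all tested, 1 rose and 0 fell by edgeR's test, against 15.3% higher and 12.3% lower of all tested genes (with unadjusted p, 1 was lower, and DESeq2 and limma-voom each found 0 lower), at a median log2 fold change of 0.030. The riser was CREB3L4, a factor of secretory cells, which went from 5.13 ± 0.0771 to 8.24 ± 0.847 CPM (SD, n = 3 each; log2 fold change 0.68, adjusted p = 4.92e-04 by edgeR). CREB3L1 (-0.37), CREB3L2 (-0.17), CREB3 (0.03), the stress sensors ATF6 (0.01) and ATF6B (0.03), and the Golgi protease genes MBTPS1 (0.10) and MBTPS2 (0.24) did not pass, by log2 fold change. CREB3L1 passed with an offset for expression level (-0.52) and MBTPS2 with library size alone (0.35).

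Known target genes of CREB3L3 were mostly at or near 0. Of 8 listed, 3 had 0 counts in every library and 1 was tested. That gene, CIDEC, a lipid droplet protein, had 8, 8 and 7 counts in shControl and 26, 24 and 13 in shRNH1 (log2 fold change 1.63 with an SE of 0.477, adjusted p = 0.0110 by edgeR's test). It did not pass without shRNH1 replicate 1 (1.45, adjusted p = 0.0845 by edgeR). CIDEC met the low-count filter only through its shRNH1 libraries, where it is higher, so its call is a description. FGF21, a hormone gene of the liver, was listed at 0, 0 and 0 counts in shControl and had 5, 11 and 7 in shRNH1, too few for the filter. With no filter FGF21 passed edgeR's test (adjusted p = 0.00127). All its counts came from shRNH1, where it is higher, so that call is a description too. APOA4 was at 0 in every library, and HAMP, the hepcidin gene, had 1, 7 and 4 counts in shControl and 7, 4 and 0 in shRNH1.

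MUC13 (ENSG00000173702; chromosome 3, 124905442 to 124953819, minus strand) had 250, 288 and 270 counts in shControl and 1270, 1291 and 1224 in shRNH1. These were 6.42, 6.97 and 7.33 CPM against 37.4, 36.8 and 37.1 CPM. The shRNH1 libraries were nearly alike, with a coefficient of variation of 0.926%, and each was at least 5.02 times the highest shControl library. The mean went from 6.91 ± 0.456 to 37.1 ± 0.344 CPM (SD, n = 3 each). Its log2 fold change of 2.43 (SE 0.108), or 5.37-fold (95% interval 4.61 to 6.26), ranked 101 of all rises. It was not separated from that of VIL1, which was 2.32 and was the larger of the pair without shControl replicate 1 (2.58 against 2.38 for MUC13).

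Other mucins went in both directions. In the list of mucin and goblet cell genes 13 of 25 were tested, and 4 rose and 3 fell (15.3% and 12.3% of all tested genes), at a median log2 fold change of 0.20. MUC16, a large transmembrane mucin, rose from 150 ± 6.92 to 308 ± 25.7 CPM (log2 fold change 1.04), and the secreted mucin MUC5B rose from 22.1 ± 1.90 to 33.9 ± 4.01 CPM (0.62). MUC2, the gel-forming mucin of intestinal goblet cells, fell from 30.7 ± 3.72 to 15.5 ± 2.25 CPM (-0.99; SD, n = 3 each). ST6GALNAC1, which adds sialic acid to mucins, fell as well (-0.69). By edgeR's test the adjusted p values ran from 3.61e-09 for MUC16 to 6.56e-04 for ST6GALNAC1. The goblet cell genes TFF3 and CLCA1 had 0 or 1 count per library, and MUC17, a transmembrane mucin of the small intestine, was listed at 0 in all 6.

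VIL1 (ENSG00000127831; chromosome 2, 218419092 to 218453295, plus strand) was the lowest of the tested members, with 23, 15 and 14 counts in shControl and 79, 93 and 57 in shRNH1. These were 0.591, 0.363 and 0.380 CPM against 2.33, 2.65 and 1.73 CPM. The groups did not overlap, and the lowest shRNH1 library was 2.92 times the highest shControl library. The mean went from 0.445 ± 0.127 to 2.24 ± 0.467 CPM (SD, n = 3 each), a log2 fold change of 2.32 (SE 0.312) or 5.01-fold (95% interval 3.21 to 7.81). On GENCODE 29, 44.0% of the exon bases of VIL1 lie within exons of USP37, a deubiquitinase gene on the opposite strand, and the labels do not say whether counting used strand. USP37 went from 13.3 ± 1.23 to 16.9 ± 1.61 CPM (log2 fold change 0.35). How far shared reads enter the VIL1 counts was not tested.

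Within the villin and gelsolin family of actin-binding proteins 6 of 7 genes were tested, and 4 rose and 1 fell (15.3% and 12.3% of all tested genes), at a median log2 fold change of 0.36. VILL, the villin-like gene, went from 1.61 ± 0.191 to 5.06 ± 0.574 CPM (log2 fold change 1.65; adjusted p = 2.65e-07). CAPG (0.58), a capping protein, and SVIL (0.43), supervillin, rose by less, with adjusted p of 2.53e-05 and 8.75e-04 (edgeR's quasi-likelihood test for all). Gelsolin, GSN (0.28), rose and FLII (-0.35), a nuclear receptor coactivator, fell, and both calls depended on the libraries or scaling used. GSN did not pass without shControl replicate 1 (0.29), shControl replicate 2 (0.26) or shRNH1 replicate 1 (0.23), nor with the replicate block (0.28). FLII did not pass without shRNH1 replicate 3 (-0.31) or with the expression level offset (-0.17). AVIL, advillin (-0.07), did not pass.

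GATA6 (ENSG00000141448; chromosome 18, 22169443 to 22202528, plus strand) went the other way. It had 1222, 1385 and 1587 counts in shControl and 736, 1050 and 664 in shRNH1, which were 31.4, 33.5 and 43.1 CPM against 21.7, 29.9 and 20.1 CPM. The groups did not overlap but came close, because shRNH1 replicate 2 lay only 1.05-fold below the lowest shControl library. The mean went from 36.0 ± 6.22 to 23.9 ± 5.25 CPM (SD, n = 3 each), a log2 fold change of -0.59 (SE 0.130), which left 66.5% of the control level. The log2 fold change was -0.78 without shRNH1 replicate 2 and -0.44 without shControl replicate 3. The overlapping antisense gene GATA6-AS1 shares 6.08% of the GATA6 exon bases and had 6 to 34 counts per library. Another antisense gene, AC091588.3, shares 8.14% and had 0 to 15 counts.

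Of its tested paralogs GATA5 alone passed. GATA5, a factor of gut epithelium, rose from 0.376 ± 0.262 to 1.19 ± 0.326 CPM (log2 fold change 1.67 with an SE of 0.417, adjusted p = 0.00333 by edgeR; SD, n = 3 each), but missed the threshold without shRNH1 replicate 1 (1.42, adjusted p = 0.0518 by edgeR). Without shControl replicate 3, which had 25 counts against 9 and 9 in the other controls, the log2 fold change was 2.39. GATA5 met the low-count filter only with its shRNH1 libraries, where it is higher, so its call is a description. GATA2 (-0.11), GATA3 (-0.26) and GATA4 (-0.19) did not pass, by log2 fold change, and GATA2 changed sign with library size alone (0.005). GATA1 had 0 to 2 counts per library.

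CDX1, CDX2 and FOXA2 gave no measurable level. CDX1 (ENSG00000113722; chromosome 5, 150166795 to 150184558, plus strand) had 0, 1 and 0 counts in shControl and 0, 2 and 0 in shRNH1. CDX2 (ENSG00000165556; chromosome 13, 27962137 to 27971139, minus strand) had 0, 1 and 0 counts in shControl and 1, 0 and 1 in shRNH1. FOXA2 (ENSG00000125798; chromosome 20, 22581005 to 22585455, minus strand) was listed at 0 in all 6 libraries. A count of 0 allows up to 3 counts, or 0.073 to 0.0956 CPM by library total, a limit that covers counting error only. No difference between the groups was detectable for these 3 genes at this depth.

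FOXA1, the forkhead paralog of FOXA2, was well expressed and fell from 66.7 ± 10.9 to 41.9 ± 3.67 CPM (log2 fold change -0.67 with an SE of 0.108, adjusted p = 2.77e-05 by edgeR; SD, n = 3 each). FOXA3 had 0 to 4 counts per library, and CDX4 was at 0 throughout. In the list of GATA, FOXA, HNF4 and CDX paralogs 6 of 9 genes were tested, with 1 higher and 1 lower, close to the shares over all tested genes (15.3% and 12.3%).

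**Figure D2:**
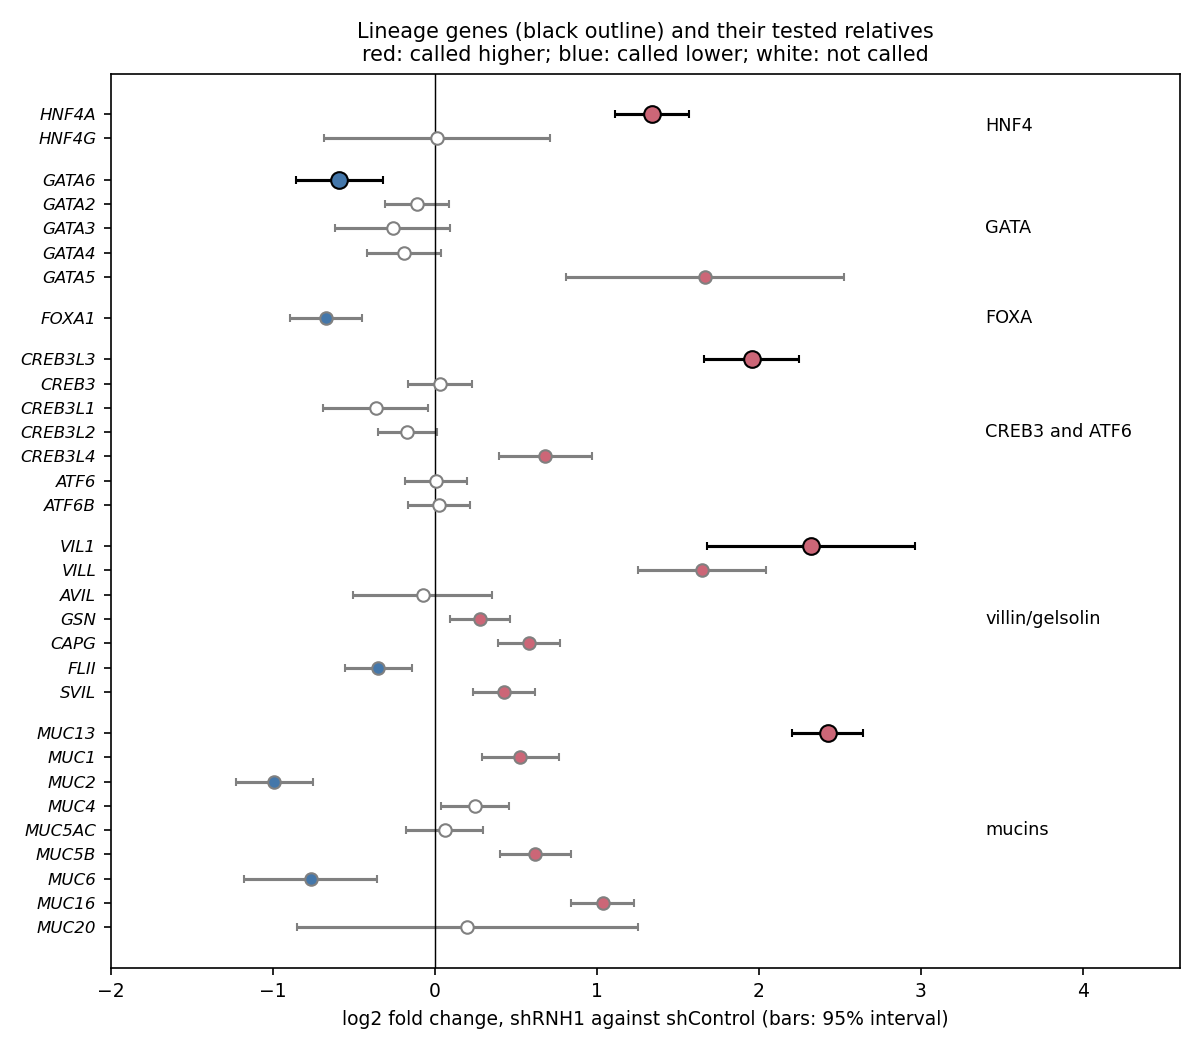
Log2 fold changes of shRNH1 against shControl (horizontal axis, with 95% intervals) for the 5 tested lineage genes (black outline) and the tested relatives of each. Among the relatives, VILL (1.65) and GATA5 (1.67) rose, MUC2 (-0.99) and FOXA1 (-0.67) fell, and HNF4G (0.01) and the ATF6 genes did not pass.

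Levels of different genes were set side by side per kilobase of exon. In shControl the order was GATA6 at 9.12 ± 1.58 CPM per kb, MUC13 at 1.97 ± 0.130, HNF4A at 1.32 ± 0.116, CREB3L3 at 1.24 ± 0.112 and VIL1 at 0.0642 ± 0.0183 (SD, n = 3). HNF4A and CREB3L3 overlapped across libraries, and the other neighbours among these 5 did not. In shRNH1 MUC13 was first at 10.6 ± 0.0982 CPM per kb, before GATA6 at 6.06 ± 1.33, CREB3L3 at 4.81 ± 0.602, HNF4A at 3.34 ± 0.241 and VIL1 at 0.323 ± 0.0675. There GATA6 and CREB3L3 overlapped. The order was the same with the length of the longest coding transcript in place of all exons. Among tested genes, on the scale of CPM per kb, MUC13 went from the 48.1 percentile in shControl to the 79.1 percentile in shRNH1, CREB3L3 from 39.2 to 65.3, HNF4A from 40.4 to 58.1, VIL1 from 2.35 to 13.8 and GATA6 from 76.6 to 69.5. For scale, TP63 was at 7.14 CPM per kb in shControl and 7.04 in shRNH1.

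**Figure D3:**
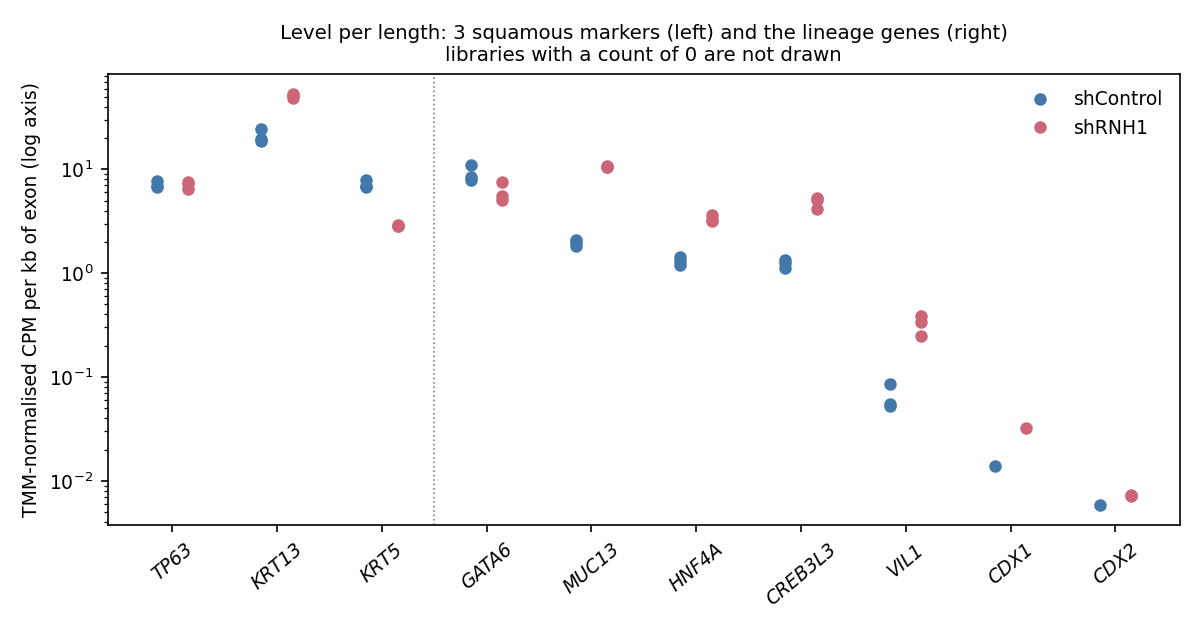
TMM-normalised CPM per kilobase of exon (log axis) in each library, for 3 squamous markers on the left and the lineage genes on the right, with shControl in blue and shRNH1 in red and counts of 0 not drawn. GATA6 and, in shRNH1, MUC13 (10.6 CPM per kb) reach the range of TP63 (7.04), while VIL1 stays below 1 and CDX1 and CDX2 lie at single counts.

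The wider gut and liver lists show how far genes beyond the 8 moved. They were drawn up by known function, with earlier results of these data known, and do not hold the 8 genes. Their counts stand beside 15.3% higher and 12.3% lower over all tested genes, with a median log2 fold change of 0.016, and nothing particular to a list is read from them. Of 41 other transcription factors of endoderm, intestine and liver, 30 were tested, and 9 rose and 5 fell, at a median log2 fold change of 0.12. PRDM1, the repressor BLIMP1 that marks the fetal gut, rose from 2.08 ± 0.439 to 8.19 ± 0.798 CPM (log2 fold change 1.98), and NR2F1, an orphan nuclear receptor, rose from 22.2 ± 3.80 to 47.5 ± 5.34 CPM (1.10). PPARA, a nuclear receptor of fatty acid oxidation (0.90), and ELF3, an epithelial ETS factor (0.73), rose too. By edgeR's test the adjusted p values ran from 1.57e-09 for PRDM1 to 9.60e-07 for ELF3 (SD, n = 3 each). NR5A2, a nuclear receptor of bile acid and intestinal gene control chosen for mention after its values were seen, fell from 3.24 ± 0.378 to 1.14 ± 0.0685 CPM. The bile acid receptor gene NR1H4 and the factors PDX1 and ISX were at 0 in every library.

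Among brush border and absorptive genes 16 of 41 were tested, and 6 rose and 2 fell, at a median log2 fold change of 0.24. USH1C, harmonin, which links the tips of microvilli to the actin core, had 0.771, 0.677 and 0.570 CPM in shControl and 5.04, 3.62 and 3.46 CPM in shRNH1. The groups were far apart, by 2.58 on the log2 scale with an SE of 0.246 (adjusted p = 7.74e-09 by edgeR). ESPN, the actin bundler espin, rose from 14.8 ± 2.85 to 32.4 ± 3.82 CPM (log2 fold change 1.13; SD, n = 3 each). ALPI, the intestinal alkaline phosphatase, went from 4.74 to 77.4 CPM per kb, above each of the 8 lineage genes in shRNH1. EZR, ezrin, which ties the membrane to actin, fell from 724 ± 45.8 to 436 ± 28.6 CPM (-0.73). SLC6A19, a neutral amino acid transporter of absorptive cells named after its values were seen, rose from 1.49 ± 0.264 to 3.79 ± 0.470 CPM. CDHR5, the other of the 2 genes that fell, went from 20.7 ± 3.60 to 12.8 ± 2.07 CPM (-0.69). Several other genes of absorptive cells were at or near 0: FABP1, FABP2, SLC5A1 and DPP4 had no count in any library, and SI, sucrase-isomaltase, had 0 to 2 counts. The 8 enterocyte markers summed to 0.218 to 0.434 CPM in shControl and 0.152 to 0.206 CPM in shRNH1.

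Of 36 genes of hepatocyte secretion and metabolism, 8 were tested and 16 were at 0 in every library. In that list 4 rose and 0 fell by edgeR's test, at a median log2 fold change of 0.92. Unadjusted p, DESeq2 and limma-voom each gave 0 lower. The low-count filter asks for enough counts in 3 libraries, and APOC3 and PCK1 met it only with their shRNH1 libraries. The split and the median therefore lean in part toward genes high in shRNH1. The median was 0.44 by DESeq2 and 0.45 with no filter, over 20 genes each, and 1.38 with the stricter filter, over 4. CPS1, the first enzyme of the urea cycle, rose from 285 ± 21.3 to 707 ± 61.4 CPM (log2 fold change 1.31; adjusted p = 1.43e-10). APOC3, an apolipoprotein gene, had 2, 12 and 9 counts in shControl and 71, 60 and 75 in shRNH1 (3.35 with an SE of 0.397, adjusted p = 3.24e-07). PCK1, an enzyme of glucose synthesis (2.21), and the clotting factor gene F10 (1.44) also rose from low levels, to 0.968 ± 0.354 and 1.62 ± 0.273 CPM, with adjusted p of 4.50e-04 and 9.87e-04 (edgeR's quasi-likelihood test for all; SD, n = 3). ALB, TTR, APOB and the fibrinogen gene FGB were at 0 in all 6 libraries. The 8 hepatocyte markers summed to 0.103 to 0.242 CPM in shControl and 0.177 to 0.313 CPM in shRNH1.

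Gastric and Barrett metaplasia genes had 5 of 14 tested, with 2 lower and 0 higher by edgeR's test (unadjusted p, DESeq2 and limma-voom each gave 0 higher). ANXA10, an annexin of gastric epithelium, fell from 12.7 ± 0.493 to 6.88 ± 1.00 CPM and MUC6, a gastric gland mucin, from 3.64 ± 0.123 to 2.14 ± 0.447 CPM (log2 fold changes -0.88 and -0.77; SD, n = 3 each). The median of the gastric list was -0.018, and 0.088 with library size alone, so it has no fixed sign. Leukocyte markers summed to 0.895 to 1.18 CPM in shControl and 1.98 to 2.62 CPM in shRNH1, with PTPRC at 0 or 1 count and 6 to 11 counts. Fibroblast markers, mostly COL1A1, summed to 63.2 to 72.7 CPM in shControl and 112 to 134 CPM in shRNH1. Of these 7 markers 3 were tested, and COL1A1 rose, PDGFRB fell and THY1 did not pass. DCN was at 0 in every library. The part of leukocyte and fibroblast markers in the values above was not tested.

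**Figure D4:**
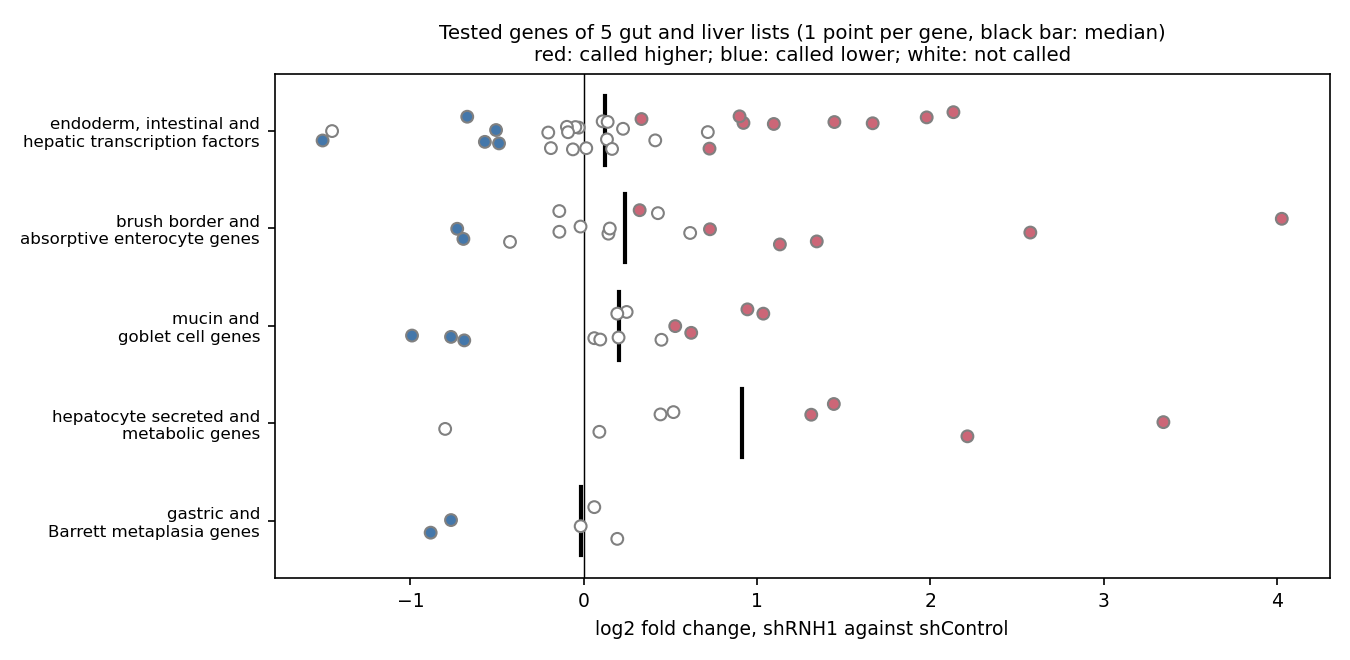
Log2 fold changes of shRNH1 against shControl (horizontal axis) for the tested genes of 5 lists that do not hold the 8 lineage genes, with 1 point per gene, colour for the call and a black bar at the median. Medians lie between -0.018 (gastric) and 0.92 (hepatocyte, over 8 tested genes), and each list but the hepatocyte list holds genes called lower. By DESeq2 the hepatocyte median was 0.44, over 20 genes, which is not drawn.

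Many genes shared the between-library pattern of each member. Likeness was Pearson's r of log2 CPM over the 6 libraries against 10962 or 10963 other genes whose average log2 CPM was 2 or more, which mainly reads the difference between the groups. The closest to HNF4A were CD70 (r = 0.99921), ARSG (0.99853) and SYBU (0.99838), and 694 genes had r over 0.95. The closest to CREB3L3 were NDRG1 (0.99878), APLP1 (0.99868) and PITPNM3 (0.99826), to MUC13 SPOCK1 (0.99942), IFI6 (0.99924) and SRGAP3 (0.99912), and to VIL1 ZNF584-DT (0.99407), BAMBI (0.99391) and WIPI1 (0.99337). GATA6 was closest to MAPK8IP3 (0.99646), ZNF710 (0.9954) and PBX3 (0.99531), with 261 genes over 0.95. VIL1, with an average log2 CPM of 0.44, was not among the candidates. None of HNF4A, CREB3L3, MUC13 and GATA6 was among the 3 closest genes of another member. With 261 (GATA6) to 785 (MUC13) genes over 0.95, that says nothing about likeness among the members.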

How the data were processed

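Poly(A) RNA of 3 shControl and 3 shRNH1 libraries was sequenced. The submitters' processing notes list the tools HISAT2, StringTie and DESeq2 and the build GRCh38. Tool versions, the read counter, its strand setting and its annotation remain not given in the sources used here. Whole-number gene counts were deposited, without normalisation by the authors.

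The counts were tested with edgeR 4.0.16 (R 4.3.3, quasi-likelihood test, TMM, filterByExpr, no covariate, Benjamini-Hochberg adjustment over 19682 genes at 0.05). On simulated data, with only a small share of genes changed, it recovered 47.8% of 1.5-fold, 65.7% of 2-fold and 90.9% of 4-fold changes. A gene that did not pass can therefore still have changed. Standard errors come from the F statistic. The members and lists were chosen with earlier results of these data known. Named genes were the 8 members, RNASEH1, RNH1, every tested relative in 3 family lists, up to 4 called genes with the smallest adjusted p in each other list, markers at or near 0, and the 3 genes most like each tested member whose average log2 CPM was 0 or more. TP63, KRT5, KRT6A, KRT13, SOX2, PKP1, COL1A1, PDGFRB, THY1, NR5A2, SLC6A19 and CDHR5 were named outside this rule, with their values known. Genes whose exons overlap those of a member were named too. All 62700 IDs had a symbol; positions and exon lengths came from GENCODE 29, another release. The titles name biological replicates, but nothing says how the cultures were kept apart, and the p-values reflect only the spread among these libraries, which may be technical. Within each group every pair of libraries differed beyond sampling noise (chi-square 6.50 to 21.2 per gene). Alternatives were other size factors, library size alone, an expression level offset (MASS 7.3.60.0.1), DESeq2 1.42.0, limma-voom (limma 3.58.1), no filter, a stricter filter, a replicate block and each library left out. Some listed genes and 1 promoter motif are not reported here.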

Additional observations from a re-analysis of the deposited data

How the results depend on the processing

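All 5 tested members kept their direction and their side of the threshold under the 14 alternatives. Their log2 fold changes ranged from 1.28 to 1.45 for HNF4A, 1.84 to 2.07 for CREB3L3, 2.18 to 2.58 for VIL1, 2.38 to 2.54 for MUC13 and -0.78 to -0.44 for GATA6, and 4 members were called higher and 1 lower in each. For genes called, shRNH1 against shControl, the number was 5424, with a range of 4150 to 5210 when a library was left out and 5094 with the replicate block. Deviations from group means correlated at 0.0454, 0.0563 and -0.0489 for equal replicate numbers, and at -0.121 to 0.0907 for unequal numbers. No pairing by number was seen, but 3 libraries per group cannot settle whether the samples were paired. The replicate block changed the call of GSN. Library size alone moved the median of all genes to 0.127 and the calls to 4065 higher and 1433 lower (73.9% higher). Genes near 0 that did not pass changed sign: ATF6 to -0.014 with other size factors and -0.019 by DESeq2, AVIL to 0.035 with library size alone, GATA2 to 0.0047 (library size alone) and 0.0060 (offset for expression level), and HNF4G to -0.0069, -0.051 and -0.016 with other size factors, the offset and DESeq2. With a library left out, values ranged from -0.012 to 0.10 for CREB3, -0.055 to 0.046 for ATF6, -0.018 to 0.066 for ATF6B, -0.15 to 0.045 for AVIL and -0.26 to 0.23 for HNF4G; the cause was not tested. The stricter filter left no CREB3L3 target gene to test. Depth limits CDX1, CDX2 and FOXA2.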
